A study of Mus musculus with 3 samples.

Results

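Circadian clock genes were examined in mouse muscle stem cells (MuSC, or satellite cells) that were fresh or had been kept in culture with or without Oncostatin M (OSM), a cytokine of the interleukin-6 family. A list of 10 genes was followed, which are Per1, Per2, Per3, Cry1, Nr1d1, Nr1d2, Dbp, Tef, Clock and Bhlhe40. They were chosen by name from the known clock pathway, but with earlier results of these data known, so counts over them are description only. The genes make up 10 of the 18193 that the arrays can read. In all, 24 of the 34945 probe sets that name 1 gene belong to them. Each gene was read from whichever of its probe sets had the highest mean signal over the 3 arrays, and its other probe sets served as a check.

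Expression was read on 3 Affymetrix MOE_430_2 arrays, 1 for each of 3 conditions, called fresh MuSC (or fresh cells), MuSC −OSM (the −OSM culture) and MuSC +OSM (the +OSM culture). Fresh MuSC were sorted by flow cytometry from the muscle of wildtype C57BL/6 mice 8 weeks old and had no culture. MuSC −OSM from the same background, age and genotype spent 3 days in medium with, by the labels, 10% FBS, and MuSC +OSM spent 3 days in the same serum with 100 ng/mL OSM. The sources used here do not say at what hour the mice were killed or the cultures harvested, nor how many mice were pooled, so the phase of the clock on each array is not known. With 1 array per condition, no difference has a replicate check and no test was possible. Hour of harvest, sorting and culture therefore cannot be told apart, and in bulk RNA fewer cells of a type cannot be told from less RNA per cell.

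The mammalian clock is a feedback loop of transcription that most cells run, muscle cells included. CLOCK, paired with its partner ARNTL (BMAL1), binds E-box sequences and switches on the Per and Cry genes, whose proteins return to the nucleus and repress that pair. The nuclear receptors encoded by Nr1d1 and Nr1d2 (REV-ERB alpha and beta) form a second loop through repression of Arntl, and DBP and TEF carry the rhythm to output genes that hold D-box sequences. Serum and other stimuli can also induce Per1 and Per2 directly and shift the phase of cultured cells.

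Signals are MAS5 values on a linear scale that the authors had scaled to a like mean on every array. The median signal was 53 in fresh cells, 36 in the −OSM culture and 32 in the +OSM culture. Before a ratio was taken, signals under 40, the median of all signals, were raised to this floor. A gene counted as measured where 1 of the arrays compared lay above it, and "at least" stands before a fold whose smaller signal did not reach it. For β-actin the 3′ control probe set exceeded the 5′ one, a measure of how intact the RNA was, by a factor of 2.35 in fresh cells, 1.40 in the −OSM culture and 1.41 in the +OSM culture. All 12 satellite cell markers listed here were above the floor in fresh cells, with Pax7 at 4006. Pax7 was at 282 in the −OSM culture and 431 in the +OSM culture, Cd34 and Calcr lay under the floor in both cultures, and the summed signal of the 12 markers was 53262, 5850 and 7302 in that order of arrays. Of the 12 markers, 10 were at least 2-fold higher in fresh cells than in the −OSM culture and 1 was lower. Among all measured genes these shares were 20.4% and 15%. Itga7, the integrin used for the sort, went the other way at 499, 1808 and 1238, and Cdh15 (M-cadherin) stayed within 2-fold at 898, 569 and 698. Among the 10 higher markers, Cd34, Calcr and Chodl had −OSM signals of 34, 35 and 28, under the floor. They counted as measured there only through the fresh array, so their folds are lower bounds. Between the cultures 10 of the 12 markers were measured, and 7 lay within 2-fold. Myf5 was 3.31-fold and Fgfr4 2.10-fold above the −OSM culture in the +OSM culture, and Spry1 was 2.43-fold below it. Past 2-fold in this comparison, 6.07% of all measured genes were higher and 4.39% lower. The differentiation marker Myog had 1530 in fresh cells, 21248 in the −OSM culture and 14369 in the +OSM culture.

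Clock genes were mostly higher in fresh cells than in the −OSM culture. Of the 10 genes, 6 were at least 2-fold higher in fresh cells (Per1, Per2, Nr1d1, Nr1d2, Dbp and Bhlhe40), 0 were at least 2-fold lower, and 4 lay within 2-fold. Among all 12755 genes measured in this comparison, 20.4% were at least 2-fold higher and 15% were at least 2-fold lower. The median log2 ratio of the 10 genes was 1.45, and that of all measured genes was 0.14. With OSM in the culture, 1 of the 10 genes, Bhlhe40, was at least 2-fold higher than in the −OSM culture and 0 were lower. The share of all 11271 measured genes at least 2-fold higher with OSM was 6.07%, and 4.39% were lower. The median log2 ratio of the 10 genes with OSM was 0.03, beside -0.01 for all measured genes. In the +OSM culture over fresh cells, 5 of the 10 were at least 2-fold lower and 0 were higher, where the shares over 12483 genes were 17.2% lower and 13.8% higher. At 1.5-fold, 7 of the 10 were higher in fresh cells than in the −OSM culture and 1 lower, where 31.8% and 24.3% of all measured genes were. With OSM over the −OSM culture the counts at 1.5-fold were 4 higher and 1 lower, beside 14.6% and 13.1%, and for the +OSM culture over fresh cells they were 1 higher and 8 lower, beside 23.8% and 29.6%. At 3-fold, 4 were higher in fresh cells than in the −OSM culture and 0 lower (10.8% and 7.42% of all), 0 differed between the cultures (2.26% higher and 1.21% lower), and 0 were higher and 4 lower in the +OSM culture than in fresh cells (6.08% and 8.41%). These comparisons share arrays, so they are not independent of each other.

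**Figure D1:**
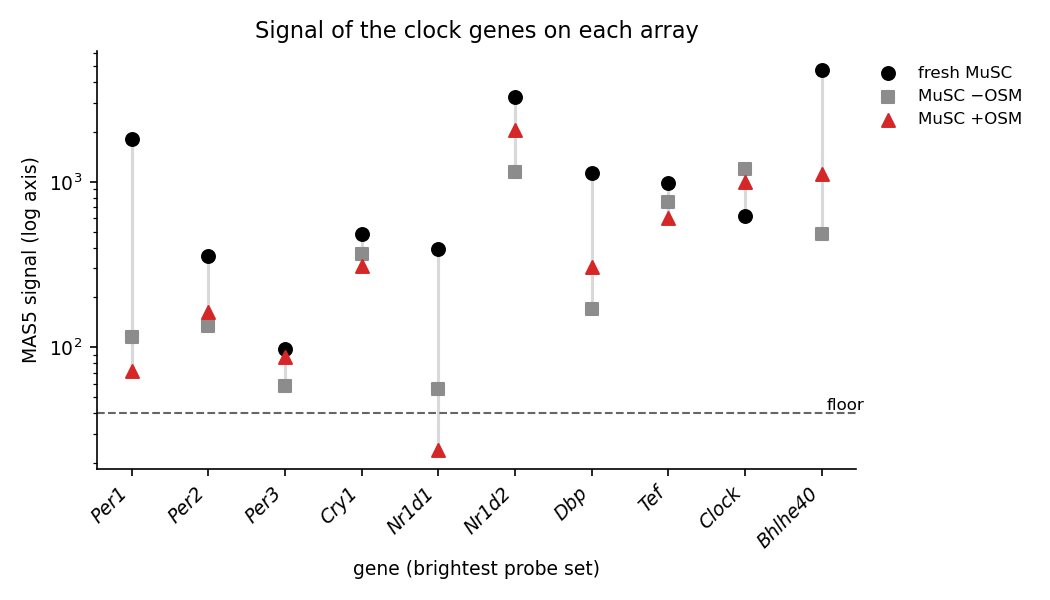
Signals (MAS5, log axis) of the brightest probe set of each of the 10 clock genes in fresh cells (black circles), the −OSM culture (gray squares) and the +OSM culture (red triangles), 1 array each, with gray lines joining the arrays and the floor of 40 dashed. Per1 lies at 1824 in fresh cells and at 115 and 72 in the cultures, whereas Clock has its lowest signal, 619, in fresh cells.

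The period genes encode the repressors of the loop. Per1 had signals of 1824 in fresh cells, 115 in the −OSM culture and 72 in the +OSM culture. The fresh array was thus 15.9-fold above the −OSM culture (log2 ratio 3.99) and 25.3-fold above the +OSM culture, the widest span of the 10 genes, and both cultures stood far below the fresh array. The log2 ratio of Per1 in fresh cells over the −OSM culture was above that of 98.8% of measured genes. Between the cultures the log2 ratio of Per1, with OSM over without, was -0.68, within 2-fold. Per2, a close relative of Per1, had 355, 135 and 164 in the same order, and was 2.63-fold higher in fresh cells than in the −OSM culture. Its second probe set had 164, 34 and 32, at least 4.10-fold higher in fresh cells, and the third, at 49, 19 and 26, was barely above the floor. Scaling the arrays to the same median brought the log2 ratio of Per2 in fresh cells over the −OSM culture to 0.84, under 2-fold. Per3, whose role in the loop is the weakest of the period genes, had 97, 58 and 87. All of these signals were low, and the ratio of fresh cells to the −OSM culture was 1.67-fold. Of the 6 probe sets of Per3, the second had 137, 8 and 89, the third 86, 42 and 36, the fourth 68, 53 and 35, and the fifth 73, 28 and 41, while the sixth was under the floor on every array. Fresh cells were above the −OSM culture on all 5 that were measured, by log2 ratios of 0.74, at least 1.78, 1.03, 0.36 and at least 0.87. With OSM they did not share a direction, since the third and the fourth had their lowest signal in the +OSM culture.

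Cry1 encodes the cryptochrome that represses CLOCK together with the PER proteins. Its signals were 481 in fresh cells, 364 in the −OSM culture and 311 in the +OSM culture, all within 2-fold of each other. Its log2 ratio in fresh cells over the −OSM culture was 0.40, and it was -0.16 when the arrays were scaled to the same median, so the sign depended on the scaling. Cry1 has a single probe set, as do Per1, Nr1d1 and Bhlhe40, so these genes have no second reading.

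The genes of the REV-ERB receptors were both higher in fresh cells than in either culture, while with OSM one read lower and the other higher. Nr1d1 had 392 in fresh cells, 56 in the −OSM culture and 24 in the +OSM culture, the last under the floor. It was 7.0-fold higher in fresh cells than in the −OSM culture and at least 9.80-fold higher than in the +OSM culture. Between the cultures it was at least 1.40-fold lower with OSM, on signals close to or under the floor. Nr1d2 had 3239, 1139 and 2069 in the same order. The signal in the +OSM culture lay between the other arrays, at 1.82-fold above the −OSM culture, while fresh cells were 2.84-fold above the −OSM culture. Its dimmer probe set had 155, 44 and 60 and kept this order, with 3.52-fold for fresh cells and 1.36-fold for the +OSM culture. Scaling to the same median brought fresh cells over the −OSM culture to a log2 ratio of 0.95, just under 2-fold, and the +OSM culture over the −OSM culture to 1.03, just above it. No array replicates the difference between these paralogs with OSM, and it was not tested.

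The output factors DBP and TEF belong to the same family of PAR bZIP proteins and bind the same D-box sequences. Dbp, one of the most strongly rhythmic transcripts in mammalian tissues, had signals of 1129 in fresh cells, 170 in the −OSM culture and 306 in the +OSM culture. It was 6.64-fold higher in fresh cells and 1.80-fold higher in the +OSM culture than in the −OSM culture. Its brightest probe set is of a type that can match more than 1 transcript, and the other, which has no such mark, had 263, 54 and 72. That probe set gave 4.87-fold and 1.33-fold, so both readings put fresh cells highest and the −OSM culture lowest. Tef had 986, 755 and 600, all within 2-fold. Its log2 ratio in fresh cells over the −OSM culture was 0.39, and -0.17 after scaling to the same median. Whereas Dbp thus spanned a log2 range of 2.73 over the 3 arrays, Tef spanned 0.72.

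Clock, which encodes the activator of the loop, was the one gene of the 10 with its lowest signal in fresh cells. Its brightest probe set had 619 in fresh cells, 1191 in the −OSM culture and 996 in the +OSM culture, a log2 ratio of -0.94 in fresh cells over the −OSM culture, just within 2-fold. The other probe sets of Clock did not all go the same way. The second had 405, 328 and 301, the third had 280, 364 and 259, and the fourth had 102, 34 and 49. Their log2 ratios in fresh cells over the −OSM culture were 0.30, -0.38 and 1.35, the last a lower bound, and the mean log2 ratio over all 4 probe sets was 0.08. The direction for Clock thus rested on the choice of probe set.

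Bhlhe40 (DEC1), a helix-loop-helix repressor that binds E-boxes and is induced by many stimuli, was the one gene of the 10 at least 2-fold higher with OSM. Its signals were 4754 in fresh cells, 483 in the −OSM culture and 1121 in the +OSM culture. The fresh array was 9.84-fold above the −OSM culture, and the +OSM culture was 2.32-fold above it and 4.24-fold below fresh cells. The log2 ratio with OSM, 1.22, was higher than that of 95.9% of measured genes, and it was 1.39 with arrays scaled to the same median and 1.12 after quantile normalization. Its signals lay above every floor tried and it has 1 probe set, so those choices could not move it. Nr1d1, for which only a lower bound is known, cannot be ranked against it, since its log2 ratio with OSM was -1.22 with the floor at the 25th percentile. The brightest probe sets of Bhlhe40 and Dbp are also among those in the study's supplementary list for its quiescence signature. The methods of the study define the signature itself from published data. The supplementary list used, beside published data, the study's own microarrays of cells cultured with or without OSM. The direction of these genes is therefore not independent evidence.

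**Figure D2:**
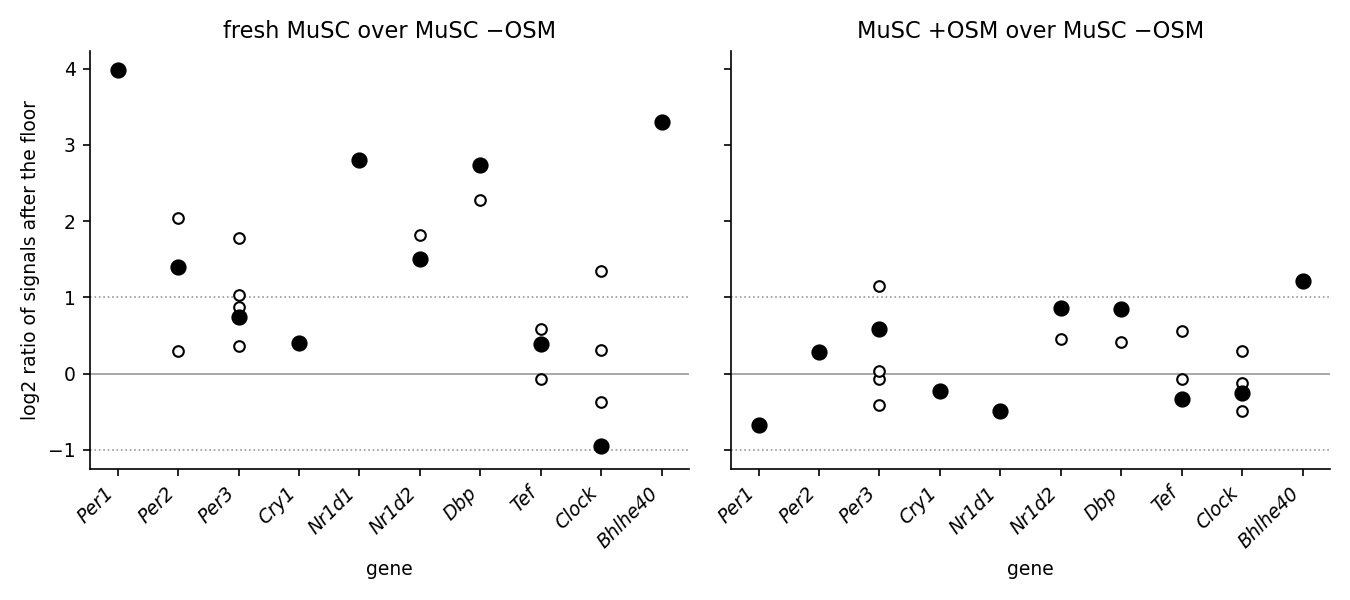
Log2 ratio of signals after the floor for every measured probe set of the 10 clock genes, in fresh cells over the −OSM culture (left) and the +OSM culture over the −OSM culture (right), with the brightest probe set filled, the others open, and dotted lines at 2-fold. Probe sets of Dbp and Nr1d2 lie close together and above 2-fold on the left, whereas those of Clock spread from -0.94 to 1.35.

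The other probe sets gave a view of how far a single reading can be trusted. In fresh cells over the −OSM culture, 13 of the 14 other probe sets were measured, from 6 genes, and 10 of these had the sign of the brightest one. The 3 that did not were 2 of Clock and 1 of Tef. For the cultures with and without OSM, 7 of 11 had the same sign and 4 did not, which were 2 of Per3, 1 of Tef and 1 of Clock. Where a brightest probe set differed by under 2-fold, as for Per3, Tef and Clock, another probe set of the gene could have the opposite sign.

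By the order of the 3 arrays, the 10 genes fell into 3 patterns. Per2, Per3, Nr1d2, Dbp and Bhlhe40 were highest in fresh cells, intermediate in the +OSM culture and lowest in the −OSM culture, an order seen in 21.3% of the 12888 genes above the floor on any array. Per1, Cry1, Nr1d1 and Tef were highest in fresh cells and lowest in the +OSM culture, as were 14.2% of genes. Clock alone ran from highest in the −OSM culture through the +OSM culture to lowest in fresh cells, as did 20.3%. In all, 9 of the 10 genes had their highest signal in fresh cells, against 48.6% of genes. For Per3, Cry1 and Tef this order rests on differences within 2-fold, and with arrays scaled to the same median Cry1 and Tef no longer had their highest signal in fresh cells, nor did Per3 and Nr1d2. Between the cultures only Bhlhe40 reached 2-fold. For the other genes the order of the +OSM and −OSM cultures thus rests on smaller differences, for Nr1d1 on a lower bound. The order of Clock also rests on differences within 2-fold. Its second probe set was highest in fresh cells, at 405, 328 and 301.

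**Figure D3:**
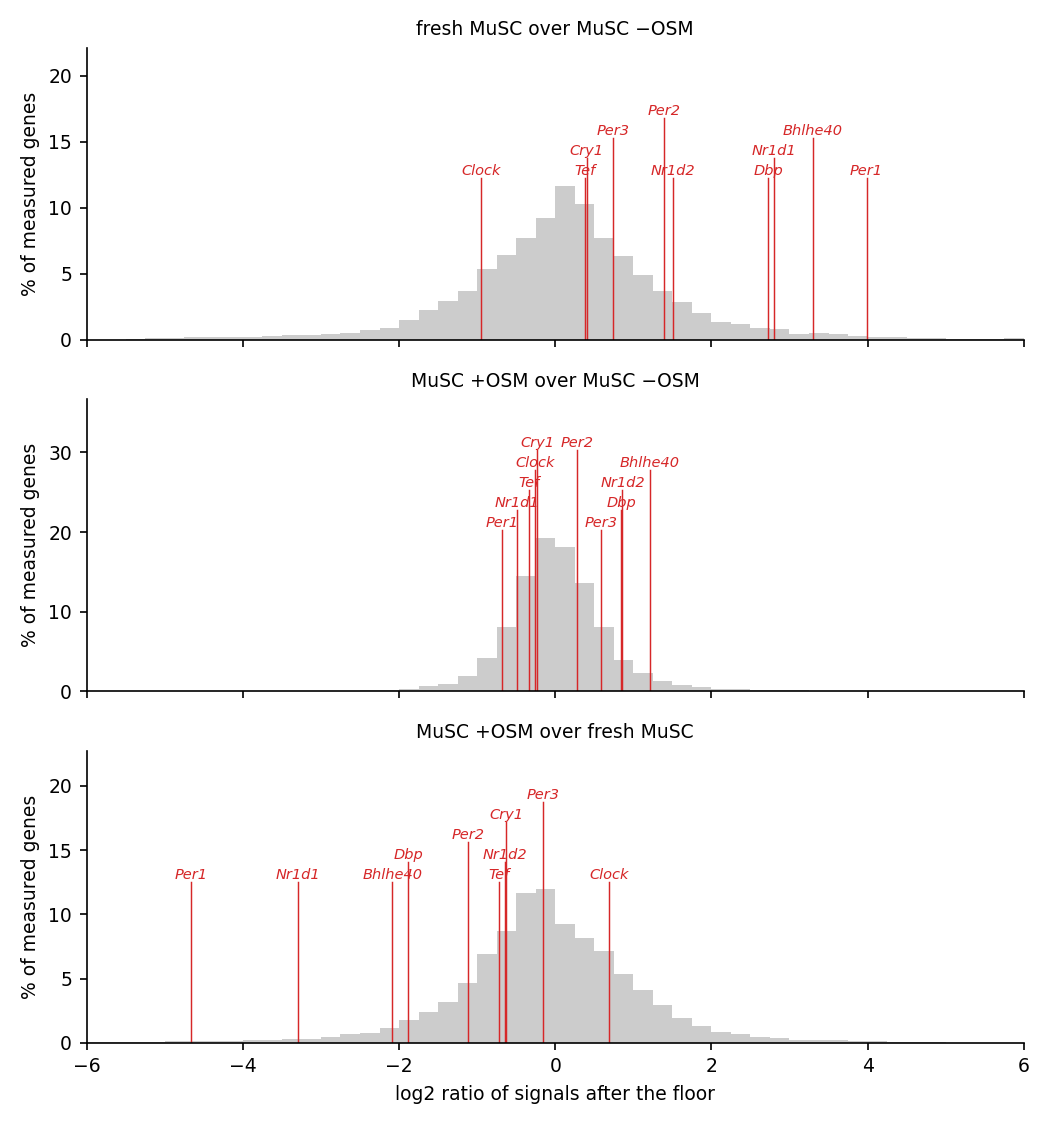
Share of measured genes, in percent, by log2 ratio in bins of 0.25 for the 3 comparisons, with the 10 clock genes as red lines at their own values and line height set only to keep labels apart. Per1, Bhlhe40, Nr1d1 and Dbp lie in the right tail of fresh cells over the −OSM culture, at 3.99, 3.30, 2.81 and 2.73, while with OSM Bhlhe40 lies farthest to the right, at 1.22.

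Promoter sequences are shown for genes that stood far apart between the arrays (Per1, Nr1d1 and Dbp) and for Cry1 and Per3, which stayed within 2-fold, so that the letters around their start sites can be set side by side. They were taken from RefSeq on build GRCm38.p6, each 300 bases long from 250 before to 50 after a transcript start, 5′ to 3′ on the strand of the gene. Of the 10 genes 8 had such windows, 12 in all, and Per2 and Bhlhe40 had none in the table. Capitals mark exact matches on either strand to the E-box CACGTG, the D-box TTATGTAA or TTACGTAA, the ROR element core AGGTCA, the cAMP response element TGACGTCA or the STAT motif TTCNNNGAA. Per1 is shown for both of its start sites.
Per1, chr11:69098699-69098998, plus strand: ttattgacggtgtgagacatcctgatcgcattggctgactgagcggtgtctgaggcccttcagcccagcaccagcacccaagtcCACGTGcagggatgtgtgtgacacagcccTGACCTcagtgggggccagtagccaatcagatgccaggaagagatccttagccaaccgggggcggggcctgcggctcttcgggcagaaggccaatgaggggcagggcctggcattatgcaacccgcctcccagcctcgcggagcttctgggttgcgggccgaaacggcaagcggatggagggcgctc
Per1, chr11:69099902-69100201, plus strand: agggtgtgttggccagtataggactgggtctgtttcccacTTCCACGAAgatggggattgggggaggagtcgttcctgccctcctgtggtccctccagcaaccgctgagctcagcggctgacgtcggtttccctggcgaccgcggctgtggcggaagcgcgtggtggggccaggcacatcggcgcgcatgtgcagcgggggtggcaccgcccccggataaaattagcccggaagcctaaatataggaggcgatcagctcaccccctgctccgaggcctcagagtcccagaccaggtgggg
Nr1d1, chr11:98775328-98775627, minus strand: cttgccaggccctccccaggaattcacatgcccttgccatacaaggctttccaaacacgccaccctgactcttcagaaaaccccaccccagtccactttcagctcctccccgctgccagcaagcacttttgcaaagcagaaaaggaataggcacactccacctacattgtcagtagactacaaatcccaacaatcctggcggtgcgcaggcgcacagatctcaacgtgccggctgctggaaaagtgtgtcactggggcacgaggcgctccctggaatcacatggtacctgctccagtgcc
Dbp, chr7:45704997-45705296, plus strand: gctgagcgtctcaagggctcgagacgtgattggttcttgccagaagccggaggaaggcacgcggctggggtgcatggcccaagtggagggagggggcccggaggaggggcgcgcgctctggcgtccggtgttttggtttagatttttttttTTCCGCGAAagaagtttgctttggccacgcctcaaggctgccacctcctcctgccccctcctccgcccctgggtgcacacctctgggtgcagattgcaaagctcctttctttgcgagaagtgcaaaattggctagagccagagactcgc
Cry1, chr10:85185005-85185304, minus strand: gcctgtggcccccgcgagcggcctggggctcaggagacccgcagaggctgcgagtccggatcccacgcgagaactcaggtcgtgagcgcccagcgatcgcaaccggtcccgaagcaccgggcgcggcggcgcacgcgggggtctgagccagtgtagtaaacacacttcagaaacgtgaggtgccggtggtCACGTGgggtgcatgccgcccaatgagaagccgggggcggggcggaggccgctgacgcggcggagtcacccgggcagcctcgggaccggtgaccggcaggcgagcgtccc
Per3, chr4:151044616-151044915, minus strand: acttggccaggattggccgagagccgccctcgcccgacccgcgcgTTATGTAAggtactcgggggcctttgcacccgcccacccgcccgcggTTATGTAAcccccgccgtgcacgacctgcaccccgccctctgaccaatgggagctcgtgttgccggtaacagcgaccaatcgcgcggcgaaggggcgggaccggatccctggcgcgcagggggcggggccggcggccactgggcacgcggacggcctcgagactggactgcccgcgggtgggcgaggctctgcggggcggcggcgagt

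The E-box, the sequence bound by CLOCK and its partner, was found 166 bases before the first start site of Per1 and 60 before that of Cry1, and in both windows of Tef. Among all 32851 windows of this kind 7.15% held it, and 4 of the 12 windows of these genes did. Per3 held the D-box at 205 and at 158 bases before its start, in a window type where 1.06% had one. The STAT motif lay in the windows of Dbp, 99 bases before the start, and of the second start of Per1, 210 before it, and was in 8.30% of all windows. The ROR element core was in 3 windows, of Per1, Nr1d2 and Clock, against 16.3% of all, and the cAMP response element was in none, against 1.79%. No motif was found in the Nr1d1 window, which says only that these letters are not in it. E-box windows belonged both to Per1, which stood 15.9-fold apart between fresh cells and the −OSM culture, and to Cry1 and Tef, which stayed within 2-fold.

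Other genes of the clock pathway had a like direction in fresh cells. Of 21 listed genes, 19 had a probe set of their own and 17 were measured in fresh cells over the −OSM culture, of which 10 were at least 2-fold higher, 1 was lower and 6 lay within 2-fold, where 20.4% of all measured genes were higher and 15% lower. The 10 became 5 with arrays scaled to the same median or with the mean of a gene's probe sets, and 4 with the second brightest probe set or the floor at the 75th percentile. The median log2 ratio was 1.09. Among the higher genes, Arntl2, Npas2, Hlf and Btrc had −OSM signals of 10, 3, 24 and 31, under the floor. They counted as measured only through the fresh array, so their folds are lower bounds set by the floor. The lower gene, Ciart, was likewise measured only through the −OSM array. Rora, a nuclear receptor that activates the sites REV-ERB represses, had 1915 in fresh cells, 385 in the −OSM culture and 440 in the +OSM culture, and 6 of its 9 probe sets were more than 2-fold higher in fresh cells. Nfil3, a bZIP repressor at D-boxes, had 3171, 734 and 1098. Cry2, the second cryptochrome gene, had 348, 109 and 75, which made it 3.19-fold higher in fresh cells than in the −OSM culture where Cry1 was 1.32-fold higher. Npas2, which can stand in for Clock, had 268, 3 and 43, at least 6.70-fold higher in fresh cells than in the −OSM culture. Its second probe set, at 48, 8 and 10, was barely above the floor in fresh cells and gave at least 1.20-fold. Arntl, the partner of Clock, had 414, 207 and 235, which is just 2.00-fold. The second probe set of Arntl had 89, 63 and 32, or 1.41-fold, and was lowest in the +OSM culture. Ciart, a repressor of the loop, was the lower gene, at 30, 81 and 71.

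With OSM, 14 of these other genes were measured, and 1 was at least 2-fold higher, 1 lower and 12 within 2-fold of the −OSM culture, where 6.07% of all measured genes were higher and 4.39% lower. The higher gene was Timeless, a replication fork protein whose place in the mammalian clock is debated, at 163, 49 and 283. Its second probe set, at 2, 30 and 32, was under the floor on every array and did not show this. The lower gene was Usp2, a deubiquitinase with rhythmic expression, at 885, 594 and 264, or 2.25-fold lower with OSM, and its second probe set had 758, 629 and 294. In the +OSM culture over fresh cells, 8 of 17 were at least 2-fold lower and 0 higher, where 17.2% of all measured genes were lower and 13.8% higher. The 8 became 4 with arrays scaled to the same median or the floor at the 75th percentile, where 8.23% and 12.5% of all measured genes were lower.

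**Figure D4:**
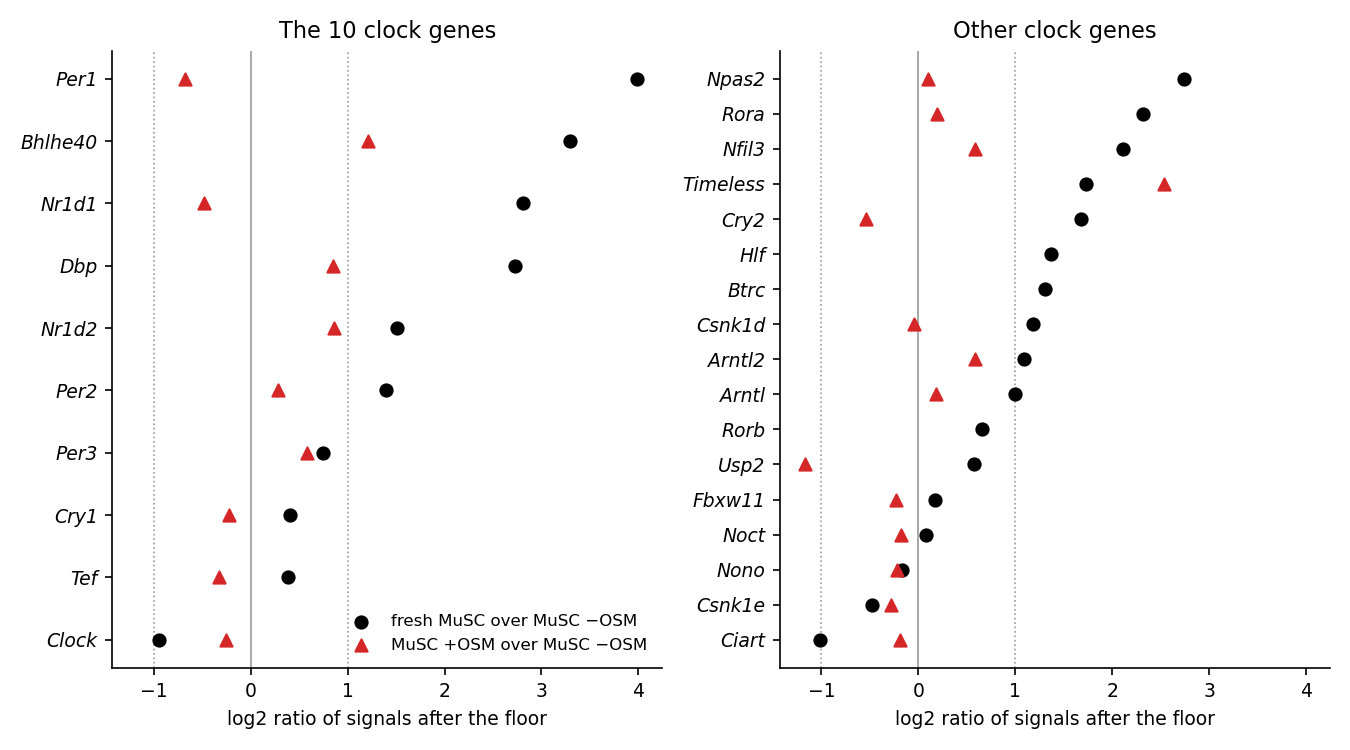
Log2 ratio of signals after the floor in fresh cells over the −OSM culture (black circles) and the +OSM culture over the −OSM culture (red triangles) for the 10 clock genes (left) and the measured other clock genes (right), 1 array per condition, with dotted lines at 2-fold. Most black circles lie right of zero in both panels, and the red triangles beyond 2-fold are Bhlhe40, Timeless and Usp2.

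Other gene groups also differed between the arrays. Immediate early genes, which answer stimulation within minutes and to which Per1 and Per2 are often counted, were at least 2-fold higher in fresh cells than in the −OSM culture for 22 of 23 genes (20.4% of all measured genes), with a summed signal of 223146 in fresh cells, 14751 in the −OSM culture and 19367 in the +OSM culture. Only the fresh array came straight from collagenase and dispase digestion with sorting. Fibroblast markers were higher in 7 of 7, with summed signals of 42548, 3441 and 11167 in the same order, where Pdgfra, Dcn and Lum lay at or under the floor in the −OSM culture. Schwann cell markers were higher in 3 of 4, at summed signals of 4454, 260 and 497, of which Mbp alone had 3747, 66 and 98. The other higher ones, Sox10 and S100b, lay under the floor in the −OSM culture. They counted as measured in this comparison only through the fresh array. The defining leukocyte marker Ptprc and the endothelial marker Pecam1 were under the floor on every array. The summed signals of 7 leukocyte markers were 1381, 244 and 238, and those of 8 endothelial markers 1394, 226 and 225, of which Lyz2 reached 1204 and Tek 791 in fresh cells. Markers of muscle differentiation ran the other way, with 12 of 12 at least 2-fold lower in fresh cells than in the −OSM culture (15% of all measured genes). With OSM over the −OSM culture, 5 of 7 fibroblast markers and 5 of 22 immediate early genes were at least 2-fold higher (6.07% of all measured genes). At least 2-fold lower with OSM were 1 immediate early gene and 3 of 12 differentiation markers (4.39%), and no Schwann cell marker differed by 2-fold. The part of these groups, and of the higher actin 3′ to 5′ ratio of the fresh array, in the levels of the clock genes was not tested.

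For Per1 and Bhlhe40, the genes nearest in pattern were taken by Euclidean distance over the 3 arrays between log2 signals centred on each gene's mean, after signals under 40 had been raised to the floor, among 7801 genes that reached a signal of 200. Nearest to Per1 were Iqgap2 (distance 0.08), Edn3 (0.15) and Cavin2 (0.29), of which Edn3 had a signal of 21 in the +OSM culture, under the floor, so that its distance rests on the floor. Nearest to Bhlhe40 were Plscr4 (0.01), Man1a (0.03) and Pik3r1 (0.05), with no signal under the floor. With only 3 arrays such likeness is common, since 24 genes lay within a distance of 0.5 of Per1 and 104 of Bhlhe40. No such order is given for Nr1d1, whose signal in the +OSM culture was under the floor.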

How the data were processed

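RNA of FACS-sorted MuSC (20 ng per array) was amplified with Affymetrix 3′ IVT Express reagents and hybridized to MOE_430_2 arrays. The authors processed the scans with MAS5 (version not given in the sources used here) and deposited signal intensity on a linear scale, with a mean after trimming 2% at each end of 198 to 199 on each of the 3 arrays. Sample labels gave the conditions. From 45037 probe sets, with 64 controls left out, 34945 named 1 gene in the platform annotation, 932 several and 9160 none, and 34741 had an identifier in the RefSeq gene table, with 0 symbols changed. Log2 ratios were computed in Python 3.11.15 (numpy 2.4.6, pandas 2.3.3) after a floor of 40, and the steps were tested on simulated data. A difference of at least 2-fold was counted. The number of arrays limits the precision, and each condition had 1 array in the data used here.

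The 10 genes, the gene lists and the motifs were chosen with earlier results of these data known. Text names the 10 genes, the 6 other clock genes and 4 clock-controlled genes with the largest ratios, and the 3 genes nearest to Per1 and to Bhlhe40. Genes at the 2-fold edge, on the lower side of a list or called higher over a signal under the floor were named after their values were seen. Satellite cell markers beyond Pax7, Cd34 and Calcr were named after their values were seen. The rule also took Nr1d1, left out because its pattern rests on the floor. Alternatives were the fold threshold, the array scaling, which probe set stands for a gene, and the floor.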

Additional observations from a re-analysis of the deposited data

How the results depend on the processing

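No paired analysis was possible because each condition has 1 array. Of 114 alternative values for counts and medians, 36 moved by more than 1.5 times, 32 by less and 46 were equal to the main value. Of 173 for single clock genes, 25 moved by 1.5-fold or more, 80 by less and 68 not at all, which include genes with 1 probe set or with signals above every floor, where the choice could change nothing. The causes were not tested. Over all genes the median log2 ratio of fresh cells to the −OSM culture was 0.14 as deposited, -0.37 with arrays scaled to the same median and -0.1 after quantile normalization. The share of genes past 2-fold that were higher went from 57.6% to 29.8% and 46.6% in this comparison, from 58.0% to 72.0% and 54.2% in the +OSM culture over the −OSM culture, and from 44.5% to 80.4% and 54.8% in the +OSM culture over fresh cells.

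For the 10 clock genes in fresh cells over the −OSM culture, Per1, Nr1d1, Dbp and Bhlhe40 kept 2-fold under both other scalings and both other floors (Nr1d1 at 1.10 with the floor at the 75th percentile), and Dbp, the one of them with a second probe set, also on that one. Lower with arrays scaled to the same median and also at 1.5-fold was 1 gene, Clock, beside 28.1% and 24.3% of all measured genes. In the +OSM culture over the −OSM culture, 3 were higher with median scaling (8.35% of all measured genes), 2 with the second brightest probe set (5.45%), 4 at 1.5-fold (14.6%) and 0 at 3-fold (2.26%). Lower were 1 with the floor at the 25th percentile (10.7%) and 1 at 1.5-fold (13.1%). In the +OSM culture over fresh cells, 1 was higher with median scaling (33.7% of all measured genes) and at 1.5-fold (23.8%), and 8 were lower at 1.5-fold (29.6%). The median of the 10 genes there was -0.92, but -0.19 with median scaling and -1.62 with the second brightest probe set.

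For the other clock genes in fresh cells over the −OSM culture, 5 were higher with median scaling (11.9% of all measured genes), with the mean of probe sets (15.3%) and at 3-fold (10.8%). With the second brightest probe set (19.7%) and likewise with a floor at the 75th percentile (16.0%), 4 were higher. Lower there were 2 with median scaling (28.1%) and with the second probe set (13.9%), and 0 with the higher floor (16.5%) and at 3-fold (7.42%). With OSM over the −OSM culture, 0 were higher with the higher floor (4.28%) and the second probe set (5.45%), 3 with the floor at the 25th percentile (8.05%) and 2 at 1.5-fold (14.6%). Lower were 2 with the lower floor (10.7%) and 0 at 3-fold (1.21%). In the +OSM culture over fresh cells, 2 were higher with median scaling (33.7%), quantile normalization (17.1%), the lower floor (13.6%) and 1.5-fold (23.8%), and 1 with the second probe set (12.55%). Lower were 4 with median scaling (8.23%), the higher floor (12.5%) and 3-fold (8.41%).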

Other observations

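Genes listed as under clock control were followed too, 16 in all, each measured in every comparison. In fresh cells over the −OSM culture, 7 were at least 2-fold higher, 3 were lower and 6 lay within 2-fold, where 20.4% of all measured genes were higher and 15% lower. The lower genes were Cdkn1a, Myod1 and Tcap, and Myod1 is also counted among the markers of muscle differentiation above. The median log2 ratio of the 16 genes was 0.87. Klf9, a Kruppel-like factor, had signals of 25617 in fresh cells, 2351 in the −OSM culture and 3732 in the +OSM culture, or 10.9-fold higher in fresh cells than in the −OSM culture. Tsc22d3 had 2640, 481 and 318. Its order of arrays was that of Per1 and of 14.2% of genes above the floor on any array, which Klf9 did not share. The CDK inhibitor gene Cdkn1a had 1428, 12109 and 9007, and the sarcomere gene Tcap, which also marks differentiating muscle, had 79, 1361 and 318, so these lay lowest in fresh cells.

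With OSM, 3 of the 16 were at least 2-fold higher than in the −OSM culture, 1 was lower and 12 lay within 2-fold, where 6.07% of all measured genes were higher and 4.39% lower. Tcap was the lower gene, at 4.28-fold. The higher genes were Tspan4, Elovl5 and Slc16a1, which were named after their values were seen, at 3.47-fold, 2.42-fold and 2.11-fold.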
